A study of Homo sapiens with 6 samples.

Results

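The gelsolin superfamily is a group of actin-binding proteins built from repeats of the gelsolin domain, and its 8 human genes (GSN, CAPG, SCIN, VIL1, VILL, AVIL, SVIL and FLII) were taken by name from a table of 58735 genes. RNA was sequenced from cells labelled MG63, a human osteosarcoma line, in 2 groups that differed in the small interfering RNA (siRNA) they received. The siFUBP1 group (3 samples) was transfected with siRNA against FUBP1, which encodes a DNA- and RNA-binding regulator of transcription. The siMock group (3 samples) received a negative control. RNA of both groups was taken 48 h after transfection, and no genetic change or drug is named for either. The labels do not say whether the samples of a group came from separate cultures, so p-values measure the spread between these samples, which may be technical.

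Actin filaments grow mainly at their barbed ends. Gelsolin, switched on by calcium and switched off by phosphoinositides, cuts a filament and stays on the new barbed end as a cap, so that the filament can be shortened or regrown elsewhere. CAPG caps without cutting, villin (VIL1), advillin (AVIL) and the villin-like protein (VILL) carry a headpiece that can bind further filaments, supervillin (SVIL) ties actin and myosin II to the membrane, and flightless I (FLII) joins gelsolin domains to leucine-rich repeats and works in the nucleus and at the membrane. In mesenchymal and tumour cells gelsolin family proteins are known for their part in motility, ruffling and podosomes.

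FUBP1 itself was measured at 255 ± 18.5 CPM in siMock (read counts scaled to library size, with the SD over 3 samples) and 46.9 ± 5.33 CPM in siFUBP1. By edgeR this was a fall of 2.44 on the log2 scale, which left 18.4% of the siMock level. The libraries held 16309900 to 17484313 counted reads each. The defining transcripts of the labelled cell type were not all present. COL1A2 had no read in any sample, SPARC had at most 5 reads and TNC at most 1, whereas VIM, COL1A1 and FN1 were expressed. KRT8 and KRT18, keratins of simple epithelia, were measured at 1989 and 705 CPM in siMock. Other epithelial markers were far lower in siMock: CLDN4 was at 28.7 CPM, EPCAM at 4.04, CDH1 at 0.937 and KRT19 at 0.124. The samples are therefore called by their labels, siMock and siFUBP1.

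Of the 8 members, 6 passed the expression filter and were tested. A gene passed the test at an adjusted p below 0.05 (edgeR quasi-likelihood test, Benjamini-Hochberg over 16116 genes) and was called where its absolute log2 fold change was also above 1. GSN fell to 26.8% of its siMock level and SVIL rose 2.69-fold, and these were the 2 called members, in opposite directions. CAPG fell to 55.6% and FLII to 85.1%, both past the test and short of the fold threshold. In bulk RNA, fewer cells of a type and less RNA per cell cannot be told apart. SCIN and AVIL did not pass the test, and VIL1 and VILL had too few reads to be tested. Among all genes tested, 17.3% were called, and 60.2% passed the adjusted p alone, so passing the test was common in these samples. For 4 of the 6 tested members every siFUBP1 sample lay on one side of every siMock sample in CPM, as it did for 63.9% of all genes tested.

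The study lists 3 siRNAs against FUBP1 and does not say which was used for sequencing. The guide strands are shown because bases 2 to 8, the seed, can pair with the 3′ untranslated region (3′ UTR) of unintended transcripts. The seeds are in capitals.
RNAi#1: uAAACUGAaugcgaacacc
RNAi#2: uAAGAGGUuugucagcacc
RNAi#3: uUUCUUCUaugaguugccg

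The site searched on the transcript strand was the reverse complement of each seed. For RNAi#1 it reads TCAGTTT. The site of RNAi#2 reads ACCTCTT, and that of RNAi#3 reads AGAAGAA. None of these letters lay in an annotated 3′ UTR of GSN, CAPG, SVIL, FLII or VILL, in any coding transcript of these genes that has one (GENCODE release 29). The 3′ UTR of the chosen transcript was 239 bases in GSN, 145 in CAPG, 188 in SVIL and 302 in FLII. Of 18958 genes with a 3′ UTR, 18.5% held the RNAi#1 site, 11.7% the RNAi#2 site and 19.4% the RNAi#3 site. SCIN, with a 3′ UTR of 7464 bases, held 1 site for RNAi#2 and 3 for RNAi#3, and VIL1, with 3959 bases, held 1 for each of these. AVIL has no annotated 3′ UTR. The SCIN site for RNAi#2 and the longest SCIN site for RNAi#3 (followed by the A that extends the match) are shown with flanks from GRCh38, plus strand, since they are the matches within a tested member; the capitals mark the bases that pair with the seed.
SCIN, RNAi#2, chr7:12655981-12656004: ctgcatttACCTCTTggtgccgga
SCIN, RNAi#3, chr7:12655863-12655886: atttaatcAGAAGAAagaaagaac

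GSN, the founding member, severs and caps filaments and also has a secreted form in plasma. The gene (ENSG00000148180) lies on the plus strand of chromosome 9 from 121207794 to 121332843 (GRCh38), with 8 coding transcripts in the annotation and 6 distinct RefSeq start windows, so that the counts per gene add up forms with different first exons. Its siMock counts were 1733, 1922 and 1458, and its siFUBP1 counts were 450, 538 and 457. Normalised, these were 106, 113 and 93.4 CPM in siMock against 26.6, 31.0 and 26.2 CPM in siFUBP1. Every siFUBP1 sample lay far below every siMock sample, and the lowest siMock value was still about 3 times the highest siFUBP1 value. The means were 104 ± 10.01 and 27.9 ± 2.67 CPM (SD, n = 3), and edgeR put the log2 fold change at -1.90 (SE 0.0939, 95% interval -2.09 to -1.71, adjusted p = 4.43e-15). GSN ranked 337 from the largest fall among the 16116 genes tested. Its 279 exonic bases shared with GSN-AS1 on the opposite strand are 2.53% of the gene, and GSN-AS1 had 12 to 22 reads in siMock and 9 to 12 in siFUBP1.

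CAPG, the capping protein that lacks severing activity, was the most abundant member per length of gene. It lies on the minus strand of chromosome 2 (ENSG00000042493, 85394748 to 85418432) and encodes 348 residues, the shortest protein of the family. Counts were 3385, 3470 and 2700 in siMock and 1832, 1968 and 1796 in siFUBP1. In CPM, the siMock samples were at 207, 204 and 173 and the siFUBP1 samples at 108, 113 and 103. The groups did not overlap, and the third siMock sample was the lowest of its group, as it was for GSN. The fall from 195 ± 19.1 to 108 ± 5.30 CPM gave a log2 fold change of -0.85 (SE 0.0820, 95% interval -1.02 to -0.68, adjusted p = 1.62e-09). The interval reached past a log2 fold change of -1, so it did not settle the level of CAPG against the fold threshold. CAPG was called under none of the 15 processing alternatives.

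SVIL moved the other way. Supervillin, with 2214 residues the longest protein of the family, is a membrane-associated scaffold rather than a severing enzyme, and its gene (ENSG00000197321) spans 29457338 to 29736781 on the minus strand of chromosome 10. SVIL counts were 328, 352 and 273 in siMock and 959, 889 and 853 in siFUBP1. The CPM values were 20.1, 20.7 and 17.5 against 56.8, 51.3 and 48.9. All siFUBP1 samples were above all siMock samples, with means of 19.4 ± 1.71 and 52.3 ± 4.06 CPM. The log2 fold change was 1.43 (SE 0.0982, 95% interval 1.22 to 1.63, adjusted p = 2.75e-12), which placed SVIL at rank 614 among the largest rises. SVIL shares 353 exonic bases with SVIL-AS1 on the opposite strand, and SVIL-AS1 fell from 12.2 to 8.67 CPM (log2 fold change -0.49, adjusted p = 0.0123), the opposite direction. The named copy SVIL2P had at most 12 reads in any sample.

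FLII pairs a gelsolin-like part with leucine-rich repeats and also acts with nuclear receptors. The gene (ENSG00000177731) lies on the minus strand of chromosome 17, from 18244836 to 18258916. Its counts were 3358, 3183 and 2772 in siMock and 2852, 2786 and 2724 in siFUBP1, which gave 206, 187 and 178 CPM against 169, 161 and 156 CPM. The groups were close and did not overlap. The means were 190 ± 14.3 and 162 ± 6.50 CPM, and FLII fell by 0.23 on the log2 scale (SE 0.0777, 95% interval -0.39 to -0.07, adjusted p = 0.0117). FLII was never called, and its side of the adjusted p threshold changed with the processing. Once fold changes were adjusted for transcript GC content and length, the log2 fold change of FLII was 0.0353 (adjusted p = 0.625), and without the first siMock sample it was -0.18 (adjusted p = 0.0632). FLII shares 40 exonic bases with LLGL1 on the opposite strand, which fell from 43.7 to 27.1 CPM (log2 fold change -0.69).

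**Figure D1:**
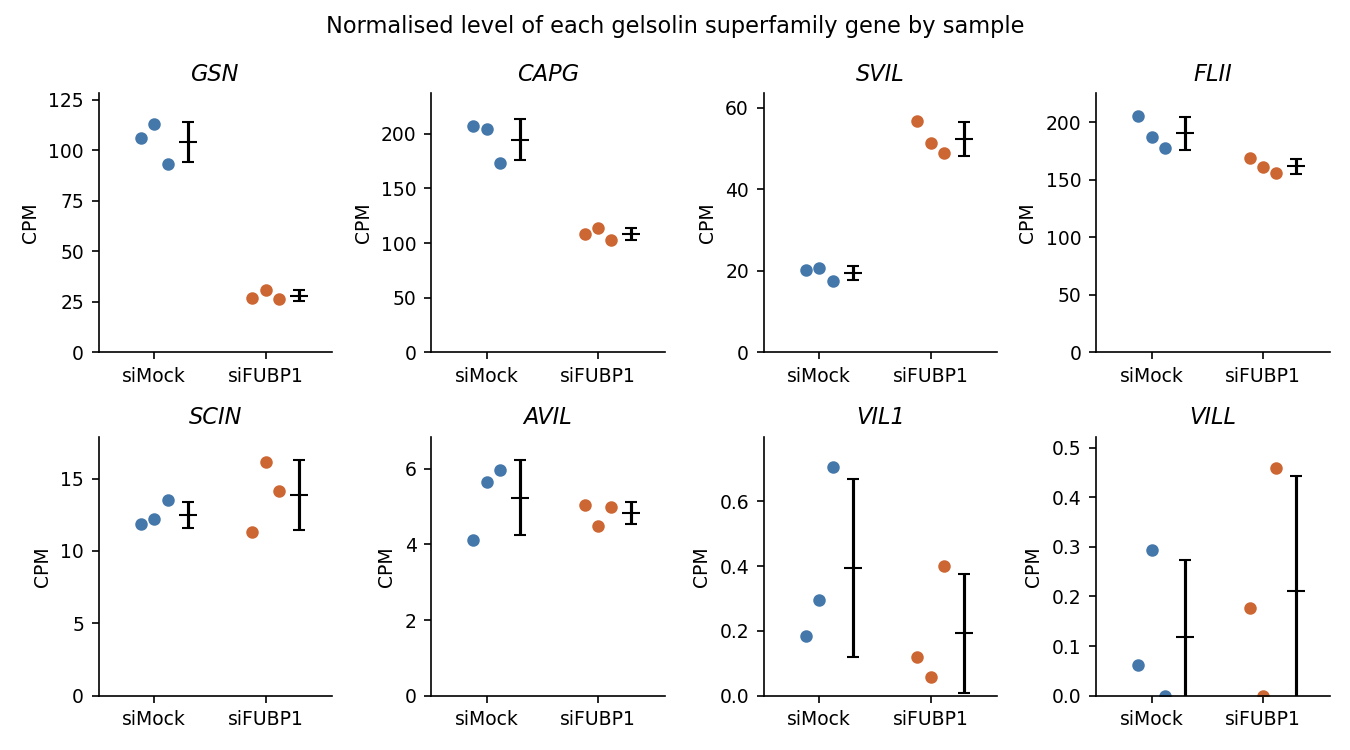
CPM (vertical axis, from 0, a scale of its own in each panel) of the 8 members in the 3 siMock (blue) and 3 siFUBP1 (orange) samples, with the mean and SD in black. GSN, CAPG and FLII were lower and SVIL higher in every siFUBP1 sample, whereas the groups overlapped for SCIN, AVIL, VIL1 and VILL.

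SCIN encodes adseverin (scinderin), a calcium-dependent severing protein known from secretory cells, and is the closest relative of gelsolin in domain layout. The gene (ENSG00000006747, chromosome 7, 12570577 to 12660179, plus strand) had 193, 207 and 211 reads in siMock and 191, 280 and 247 in siFUBP1. The values of 11.8, 12.2 and 13.5 CPM in siMock lay inside the siFUBP1 range of 11.3, 16.1 and 14.1 CPM. The difference was 0.15 on the log2 scale (SE 0.136, adjusted p = 0.353), with a 95% interval from -0.13 to 0.43, so a change the size of that of GSN or SVIL lay outside the interval. SCIN is also the tested member with seed sites for RNAi#2 and RNAi#3.

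AVIL encodes advillin, known from sensory neurons and tuft cells. The gene (ENSG00000135407, chromosome 12, 57797376 to 57818704, minus strand) had 67, 96 and 93 reads in siMock and 85, 78 and 87 in siFUBP1. The CPM values were 4.11, 5.65 and 5.96 against 5.03, 4.50 and 4.98, and the siFUBP1 samples fell within the siMock range. The log2 fold change of -0.11 (SE 0.188, adjusted p = 0.622) had a 95% interval from -0.50 to 0.27. AVIL shares 303 exonic bases (5.15%) with TSFM on the opposite strand, which had 331 to 645 reads and fell (log2 fold change -0.92, adjusted p = 7.08e-09). It is not stated whether the counting used strand, so reads from these shared bases cannot be told apart.

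VIL1, the villin of intestinal microvilli, had 3, 5 and 11 reads in siMock and 2, 1 and 7 in siFUBP1. VILL, the villin-like gene, had 1, 5 and 0 reads in siMock and 3, 0 and 8 in siFUBP1. Both were close to the floor in every sample. A count of 0 allows up to 0.184 CPM in the third siMock sample and 0.182 CPM in the second siFUBP1 sample. These limits cover counting error only and are scaled to total counts, without the normalization factors of the other CPM values. When no expression filter was set, edgeR gave VIL1 a 95% interval from -2.49 to 0.53 and VILL one from -1.23 to 2.80 on the log2 scale, so no difference was detectable at this depth. VIL1 (ENSG00000127831, chromosome 2, 218419092 to 218453295) shares 44.0% of its exonic bases with USP37 on the opposite strand, which had 299 to 398 reads. Since the strand setting is not stated, reads from these shared bases cannot be told apart, and the VIL1 counts carry that limit. VILL (ENSG00000136059) lies on chromosome 3 from 37988059 to 38007188. CDX2 and FABP2, markers of the intestinal epithelium where VIL1 is best known, had no read in any sample.

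**Figure D2:**
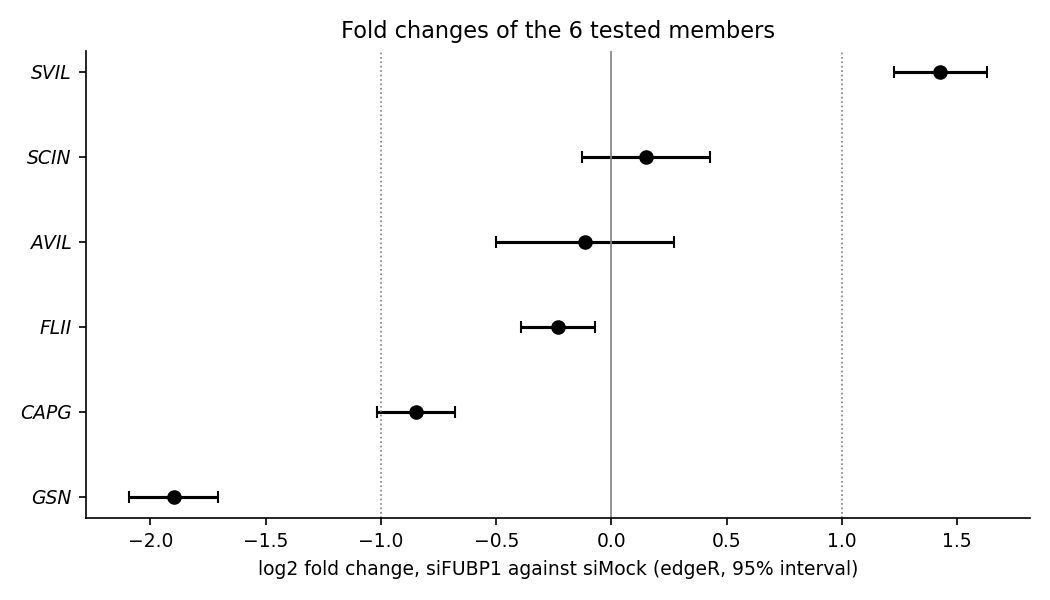
Log2 fold change of siFUBP1 against siMock (horizontal axis) with its 95% interval for the 6 tested members, with dotted lines at the fold threshold of 1 in both directions. The intervals of GSN (-2.09 to -1.71) and SVIL (1.22 to 1.63) lie beyond the lines, that of CAPG crosses one, and those of SCIN and AVIL include 0.

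Levels can be set beside each other between genes only per length, for which the deposited FPKM (fragments scaled to gene length and library size) were used. In siMock the order of mean FPKM was CAPG (73.9), FLII (29.1), GSN (9.35), SVIL (1.93), SCIN (1.06), AVIL (0.879), VIL1 (0.0563) and VILL (0.0181). In siFUBP1 it was CAPG (41.3), FLII (24.9), SVIL (5.23), GSN (2.52), SCIN (1.19), AVIL (0.816), VILL (0.0325) and VIL1 (0.0276). Neighbours in both orders were separated in all samples except VIL1 and VILL, whose samples overlapped. The sum over the 8 members fell from 116 ± 10.02 to 76.0 ± 3.08 FPKM (SD, n = 3), as a description with no test.

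The make-up of the family therefore differed between the groups. CAPG made up 63.5% ± 0.994 of the summed FPKM in siMock and 54.3% ± 0.998 in siFUBP1. The share of FLII was 25.04% ± 1.09 in siMock and 32.8% ± 1.00 in siFUBP1, a larger share of a smaller sum. GSN made up 8.04% ± 0.360 in siMock and 3.32% ± 0.244 in siFUBP1, and SVIL 1.66% ± 0.0462 and 6.88% ± 0.413. SCIN and AVIL stayed at or below 1.77% in every sample.

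The ratio of GSN to SVIL showed the opposite movements of these genes most plainly. In FPKM it was 4.77, 4.92 and 4.82 in the siMock samples and 0.423, 0.546 and 0.483 in the siFUBP1 samples, a ratio of 4.84 ± 0.0813 against 0.484 ± 0.0613. The change in the ratio, 9.99-fold, does not depend on gene length, but the order of the levels does. The deposited FPKM divide by all exonic bases of a gene, 11018 for GSN and 9937 for SVIL, whereas single annotated transcripts are 2657 and 7586 bases. Per kilobase of these transcripts the ratio was 15.3 ± 0.257 in siMock and 1.53 ± 0.194 in siFUBP1, so that GSN was above SVIL in every sample on that scale. The mean levels of AVIL were also above those of SCIN on that scale in both groups.

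**Figure D3:**
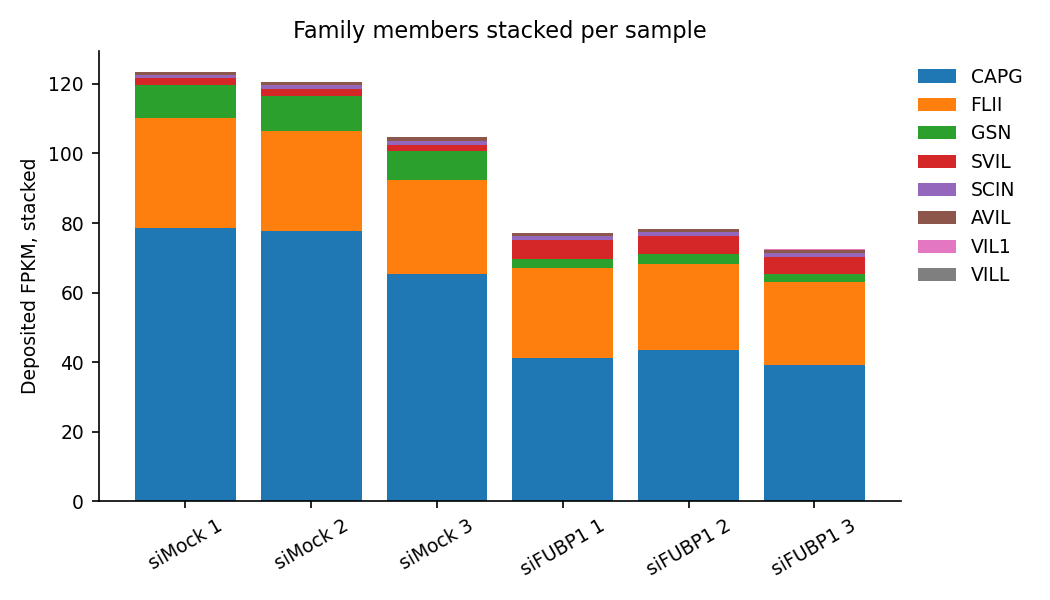
Deposited FPKM of the 8 members stacked for each of the 6 samples (vertical axis, from 0), VIL1 and VILL being too low to be seen. CAPG and FLII fill most of each bar, GSN narrows and SVIL widens in the siFUBP1 samples, and the bars reach 105 to 123 FPKM in siMock and 72.5 to 78.3 in siFUBP1.

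Markers of other cell types moved with the groups. The summed level of 6 epithelial markers was 2554 to 2930 CPM in siMock and 1379 to 1508 CPM in siFUBP1, mostly KRT8 and KRT18, with KRT19 at no more than 3 reads. The 7 mesenchymal and osteosarcoma markers summed to 373 to 380 CPM in siMock and 298 to 328 CPM in siFUBP1, with COL1A2 at 0 in all samples. These markers did not move together: VIM rose from 149 to 194 CPM (log2 fold change 0.38), whereas COL1A1 (-1.31) and FN1 (-0.79) fell. RUNX2, the osteoblast transcription factor, had 6 to 8 reads in siMock and 39 to 97 in siFUBP1. Leukocyte markers (6 genes) summed to at most 4.65 CPM in any sample, with CD3E at 0, and endothelial markers (4 genes) to at most 5.18 CPM. Muscle markers (5 genes, MYOD1 at 0) summed to at most 13.4 CPM, and brush border and sensory markers (6 genes, CDX2 and FABP2 at 0) to at most 0.897 CPM. The part of the epithelial and mesenchymal markers in the changes of GSN, CAPG and SVIL was not tested.

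The rest of the filament machinery was read from 8 lists of actin regulators. The list medians lay between -0.30 and 0.12 on the log2 scale, beside a median of 0.0020 over all genes tested. The counts of each list below stand beside 60.2% of all genes tested that passed the test and 17.3% that were called. In the cofilin pathway, the other main route of filament severing, 16 of 17 genes were tested, of which 4 passed the test upward and 6 downward. LIMK1 and LIMK2, kinases that inactivate cofilin, parted, LIMK1 rising from 51.3 ± 6.01 to 195 ± 14.5 CPM (log2 fold change 1.93, adjusted p = 1.32e-15) and LIMK2 falling from 31.9 ± 1.17 to 15.2 ± 0.815 CPM (-1.07, adjusted p = 1.02e-09). The kinases TESK1 and TESK2 of the same list are named after their values were seen. TESK1 fell (-0.86), and TESK2 (-0.31) did not pass the test. CAP2, which recycles actin monomers, fell from 28.1 ± 2.61 to 8.69 ± 0.316 CPM (-1.69). The severing proteins themselves moved less: CFL1 fell (-0.47), DSTN fell (-0.55) and CFL2 rose (0.40), values named after they were seen.

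Among genes that bind filament ends, as gelsolin and CAPG do, or that bind or regulate capping protein, 20 of 26 were tested. The test was passed upward by 5 and downward by 7. Of these, 1 was called upward and 5 downward, where over all genes tested 60.2% passed and 17.3% were called. EPS8L2 and EPS8L3, relatives of the barbed-end capper EPS8, fell by 1.16 and 1.94 on the log2 scale, from 171 to 76.3 CPM and from 47.5 to 12.4 CPM. EPS8 itself, named after its value was seen, rose from 29.7 to 52.1 CPM (log2 fold change 0.81). CARMIL2 (-2.23), which regulates capping protein, fell from 3.29 to 0.700 CPM, ADD3 (-1.72), an adducin, from 5.17 to 1.56 CPM, and TMOD1 (-1.74), a pointed-end capper, from 3.44 to 1.02 CPM. LMOD1 rose from 0.468 to 0.985 CPM (1.06, adjusted p = 0.0383), on 5 to 19 reads a sample. LMOD1 no longer passed without sample 2 or 3 of siMock, or without sample 2 or 3 of siFUBP1, with adjusted p-values by edgeR of 0.0849, 0.143, 0.0939 and 0.104. Of the core capping protein, whose subunits are named after their values were seen, CAPZA2 rose from 141 to 184 CPM (log2 fold change 0.39), and CAPZA1 (-0.13) and CAPZB (0.023) did not pass the test.

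Of 9 monomer-binding genes, 4 were tested, and TMSB4X (log2 fold change 0.50) and PFN2 (0.27), named after their values were seen, rose. Of 6 actin genes, 2 were tested. ACTG1, a cytoplasmic actin, fell by 0.45 on the log2 scale, and ACTB, the other, was at -0.15 with an adjusted p of 0.138, values named after they were seen. Of 7 kinases that make or modify the phosphoinositides that switch gelsolin off, 6 were tested, 1 passed the test upward and 3 downward, and none was called.

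Nucleators, which start new filaments, had 29 of 32 genes tested, with 13 passing the test upward and 9 downward. Of the 29, 3 were called, where over all genes tested 60.2% passed and 17.3% were called. The called ones all fell: SPIRE2 from 191 ± 21.8 to 86.3 ± 4.55 CPM (log2 fold change -1.15), and on few reads FMN1 (-1.72, 2 to 22 reads) and WASF3 (-1.33, 4 to 16 reads). The size of the fall of FMN1 varied with single siFUBP1 samples, at -2.69 without the first and -1.30 without the second. FMN1 was still called whichever sample was left out. WASF3 did not pass without the third siMock sample (adjusted p = 0.0779) or the first siFUBP1 sample (adjusted p = 0.0822). Among tropomyosins and crosslinkers, 16 of 20 were tested, 7 passed upward and 4 downward, and TPM4, a tropomyosin that coats stress-fibre filaments, was the called gene, rising from 174 ± 12.4 to 793 ± 22.1 CPM (2.19, adjusted p = 2.74e-17). Of 10 partners of FLII and of the actin-responsive factor SRF, 2 passed upward and 4 downward. MYD88, the innate immune adaptor with which FLII can interact, fell from 42.9 ± 1.36 to 12.01 ± 1.29 CPM (-1.83). The partners LRRFIP1 (0.48) and LRRFIP2 (-0.54), named after their values were seen, moved in opposite directions.

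**Figure D4:**
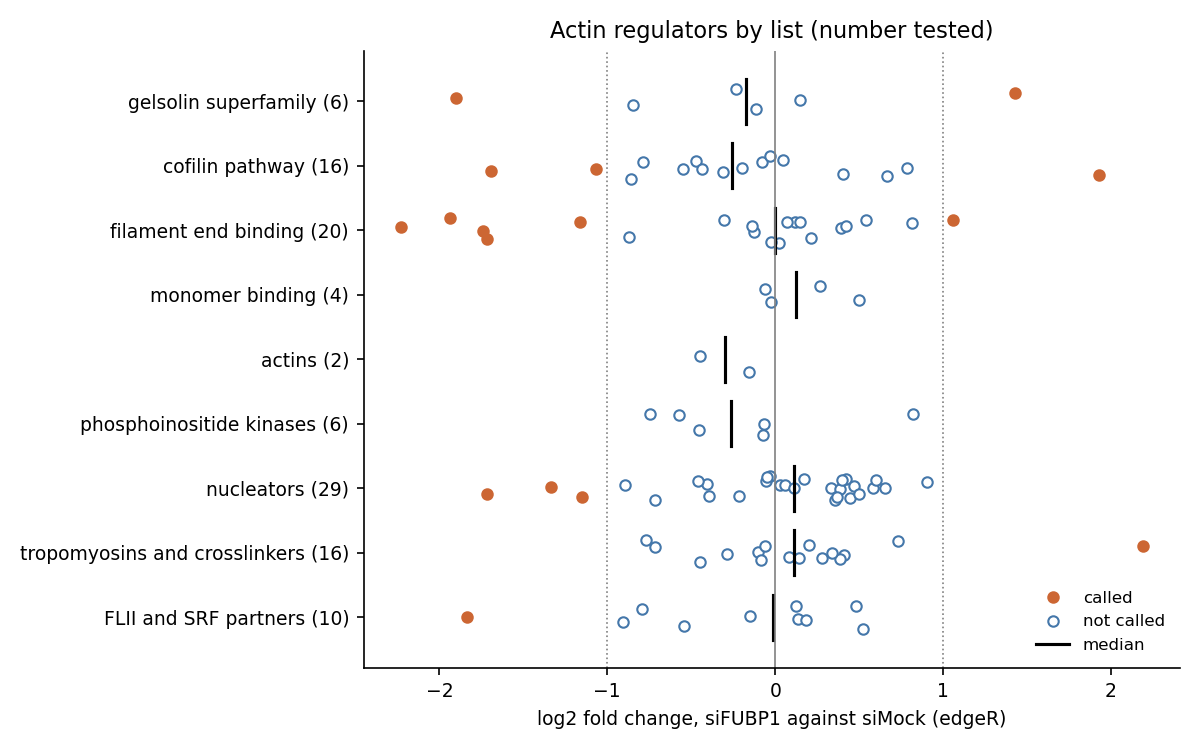
Log2 fold change of siFUBP1 against siMock (horizontal axis) for each tested gene of the gelsolin superfamily and of 8 further actin lists, filled where called, with the median as a black bar and the number tested in brackets. Called genes lie on both sides of 0 in the gelsolin, cofilin and filament end lists, and over all lists they run from -2.23 for CARMIL2 to 2.19 for TPM4.

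The genes with the pattern most like GSN over the 6 samples, by Pearson's r of log2 CPM among 10443 genes with 100 or more counts on average, were LIMK2, USP2, IL4R, CDC42BPG and CLDN4. LIMK2 had r = 0.999, with a log2 fold change of -1.07 against -1.90 for GSN. With 3 samples in each of 2 groups, r largely reflects the presence of a group difference and not its size. As a description, 1781 genes had an r above 0.95, all measured in the same 6 libraries as GSN.

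**Figure D5:**
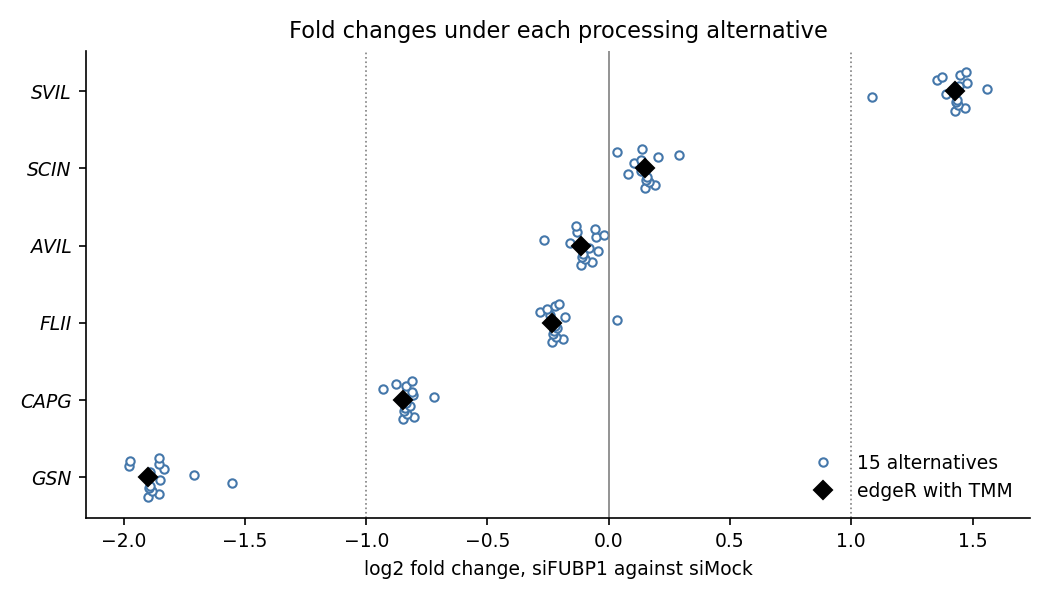
Log2 fold change of the 6 tested members (horizontal axis) by edgeR with TMM normalization (black diamonds) and under 15 other processing settings (open circles). GSN stayed between -1.98 and -1.55 and SVIL between 1.09 and 1.56, whereas FLII crossed 0 once fold changes were adjusted for transcript GC content and length.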

How the data were processed

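RNA-seq of 6 samples was used, grouped by their titles. The authors deposited 1 table of 58735 genes with raw read counts per gene, and FPKM that the authors computed from the counts and the length of all exons. Per the labels, the submitters' processing notes name HISAT2 2.0.5, featureCounts 1.5.0-p3, StringTie 1.3.3b and DESeq2 1.16.1; the strand setting of the counting is not given in the sources used here. The deposited group means (signal, in normalized counts), log2 fold changes and p-values (raw and adjusted) of the authors' own comparison were not used. All gene starts, ends and exon lengths equal those of GENCODE release 29 (GRCh38).

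The groups were tested in edgeR 4.0.16 (R 4.3.3; TMM, edgeR's expression filter with a minimum count of 10, robust quasi-likelihood F test, Benjamini-Hochberg over 16116 genes), with a call where the adjusted p was below 0.05 and the absolute log2 fold change over 1. DESeq2 1.42.0, limma 3.58.1, other scalings and filters, an adjustment for transcript GC content and length, and leaving out each sample were alternatives. The fits were also run on simulated counts with dispersions taken from these data. Far fewer genes were changed there than passed the test here, so the simulation cannot vouch for these calls. Total counts were 16309900 to 17484313, TMM factors 0.959 to 1.05, the common dispersion 0.00684, and 0 pairs of samples were duplicates. Intervals and limits cover counting error or the spread between samples only.

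Named genes are the 8 members, FUBP1, genes that overlap a member, the called genes of 8 actin lists (all where 6 or fewer, otherwise the 3 largest in each direction), the 5 coding genes most like GSN, and markers of cell types. Other genes are said in the text to be named after their values were seen. The members and lists were chosen with earlier results of these data known. Guides are the antisense strands of the siRNAs in the study's supplement.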

Additional observations from a re-analysis of the deposited data

How the results depend on the processing

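GSN, CAPG and SVIL kept their direction and their side of the adjusted p threshold under all 15 alternatives, and SCIN and AVIL passed the test under none. The log2 fold changes lay between -1.98 and -1.55 for GSN, -0.93 and -0.72 for CAPG, 1.09 and 1.56 for SVIL, 0.034 and 0.29 for SCIN, and -0.27 and -0.019 for AVIL. FLII changed sign to 0.0353 (adjusted p = 0.625, edgeR) once adjusted for transcript GC content and length, and fell short of the threshold without siMock replicate 1 (-0.18, leave-one-out range -0.29 to -0.18); the cause was not tested. With no fold threshold, 4 members and 9695 genes passed (4844 higher, 4851 lower). With a mean of at least 50 counts, 1662 genes were called (731 higher, 931 lower), and with limma on log2(FPKM + 1) 1050 (462 higher, 588 lower), where a pseudocount shrinks low genes, against 2787 (1315 higher, 1472 lower) in edgeR. Deviations from the group means correlated at -0.0047, 0.017 and 0.123 between samples with the same replicate number. Not every sample correlated best with its own number. With 3 samples a group, these values cannot decide whether the numbers mark pairs, and the main fit used no pairing. With the replicate block 2793 genes and 2 members were called, and FLII was at -0.23 (adjusted p = 0.00213). Per kilobase of 1 transcript, an alternative chosen after seeing the data, the share of the family in siMock and siFUBP1 was 17.5% and 7.90% for GSN, 60.3% and 56.4% for CAPG, 0.580% and 1.07% for SCIN, 1.14% and 5.18% for SVIL, and 19.6% and 28.1% for FLII, and 1.26% for AVIL in siFUBP1. FMN1, WASF3 and LMOD1 kept their side of the adjusted p threshold in 12, 10 and 8 of 14 alternatives. ADD3, CARMIL2, TMOD1 and LIMK2 passed the test but not the fold threshold in limma on log2(FPKM + 1), and EPS8L2, SPIRE2 and LIMK2 likewise once adjusted for GC content and length. The few reads of VIL1 and VILL limit what can be said of them.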
